A study of Ceratotherium simum simum with 6 samples.

Results

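Spliced unnamed loci are stretches of the rhinoceros genome at which the transcript assembly found exons joined by introns, but to which it gave no gene name, and which lie clear of the exons of every named gene. They were chosen from the deposited table of transcript positions, without using any count. A gene identifier was taken if none of its transcripts carried a name, if at least 1 transcript had 2 or more exons, and if it shared no exonic base with a named gene on either strand. Of 40656 gene identifiers, 18087 had no name, 3389 of these lay clear of named exons and 2269 of those were spliced, 12.5% of the unnamed. Unnamed genes that overlapped on opposite strands, including 48 single-exon partners, were joined, which gave 1602 loci out of 25866 in all. The 1072 unnamed loci that also lay clear of named exons but had no spliced transcript served for comparison.

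The counts come from RNA-seq of granulosa cells, the hormone-making somatic layer around the egg cell in the follicle of the ovary, of 2 southern white rhinoceroses (Ceratotherium simum simum). Rhino 2 and rhino 1 had 3 libraries each, and all were labelled wild type, in vivo and before IVM, the in vitro maturation of oocytes. The labels give neither age nor the source of the replicates, so the p-values measure the spread between libraries of 1 animal per group, which may be technical. Library totals were between 703708 and 1523904 counts in rhino 2 and between 672410 and 13288936 in rhino 1. All 10 granulosa markers checked had counts in all 6 libraries (summed levels of 10080 to 16640 CPM, counts scaled to a library total of 1000000, in rhino 2 and 15320 to 25850 CPM in rhino 1), and 7 of 8 oocyte markers were at 0 in all 6. Markers of some other cells differed between the animals. Summed theca and stroma markers were at 21.3 to 38.0 CPM in rhino 2 and 179.8 to 303.4 CPM in rhino 1, and endothelial markers at 164.7 to 257.2 CPM in rhino 2 and 57.3 to 101.0 CPM in rhino 1, with 2 of 5 and 2 of 4 at 0 throughout. Erythrocyte markers were at 386.5 to 808.6 CPM in rhino 2 and 1963 to 4335 CPM in rhino 1, with 2 of 3 at 0 throughout, and smooth muscle and leukocyte markers overlapped. Their part in the differences below was not tested, and in bulk RNA fewer cells of a type and less RNA per cell cannot be told apart.

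An assembler such as StringTie builds transcripts from read alignments, and it sets an intron where reads align across a gap. A spliced model without a name can be a long non-coding RNA, a protein-coding gene that the annotation lacked, a detached piece of a named gene, or a copy of a gene. Long non-coding RNAs are RNA polymerase II transcripts that are often spliced like messenger RNAs, are mostly less abundant than these, and often start near the promoter of a protein-coding gene. The loci are given below by their assembly identifier, with scaffold positions as in the deposited table. The genome build of that table is not given in the sources used here.

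Most of the loci were short and simple. The median exonic length was 501 bp (range 200 to 23024), the median span from first to last exon was 4323.5 bp (239 to 494817), and 973 loci had a single transcript model. The largest number of exons in 1 transcript was 2 at 924 loci (57.7%) and 3 at 338, while 340 loci had 4 or more, 55 had 10 or more and 15 had 20 or more. Models stood on both strands at 582 loci and on 1 strand at 1020, of which 483 were on the plus and 537 on the minus strand. The share modelled on both strands was 18.7% at loci of 2 exons, 47.6% at 3 exons, 69.8% at 4 to 9 exons and 89.1% at 10 or more.

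**Figure D1:**
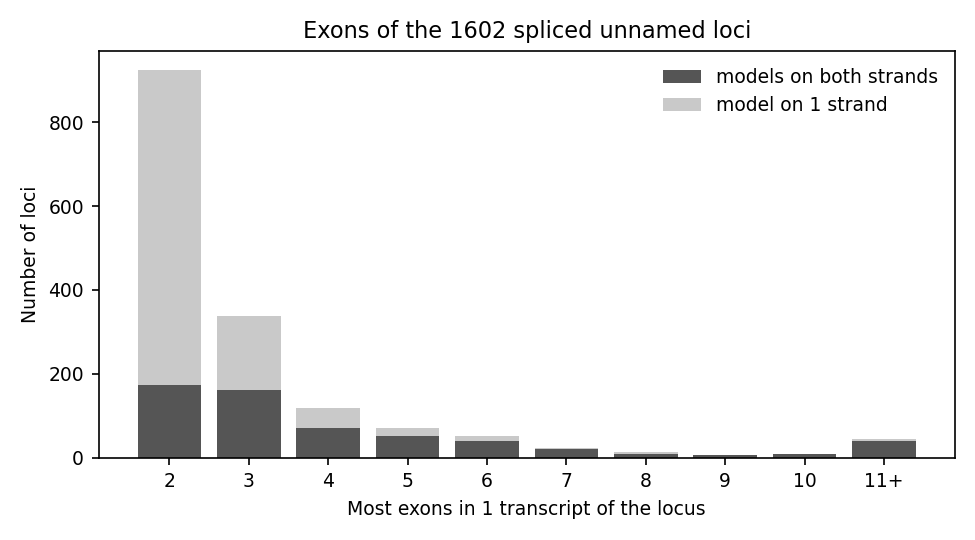
Number of spliced unnamed loci (vertical axis) by the most exons in 1 transcript (horizontal axis), with loci modelled on both strands in dark grey and on 1 strand in light grey. Loci of 2 exons make up 924 of the 1602, and only 173 of them have models on both strands.

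The paired strands mirrored each other. At loci with both, the plus models held 2127 introns and the minus models 2156, and 1675 of these were identical to the base, 78.7% of the plus and 77.7% of the minus introns. At least 1 identical intron was present at 500 of the 582 loci. The libraries used these strands differently. At the 355 loci with at least 20 counts both in rhino 1 replicate 1 and in the other 5 libraries together, the strand that led in rhino 1 replicate 1 held 1.04%, 1.22% and 1.31% of the counts in rhino 2 replicates 1, 2 and 3, against 99.5%, 0.483% and 0.774% in rhino 1 replicates 1, 2 and 3. At 343 of the 355 loci, over 90% of the counts of rhino 1 replicate 1 were on 1 strand and under 10% of the counts of the other 5 libraries were on it. Rhino 1 replicate 1 therefore stands apart, and values below are sums over both strands. At the 10525 named loci with a model on the opposite strand, the strand of the named gene held 0.978%, 0.979% and 1.03% of the counts in rhino 2, against 99.2%, 0.941% and 0.993% in rhino 1. Rhino 1 replicate 1 is thus the library that counted on the strand of the named models. At a locus modelled on 1 strand, a count of 0 in either kind of library says nothing about its RNA.

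Spliced unnamed loci lay further from named genes than single-exon ones, and a larger share of them lay upstream of the nearest named gene. Outside gene spans, the median distance to the nearest named gene was 10522 bp for spliced and 2228 bp for single-exon unnamed loci. Of the spliced loci, 148 (9.24%) were inside the span of a named gene without touching its exons, 66 (4.12%) overlapped a span in part, 268 (16.7%) were within 1 kb, 277 (17.3%) at 1 to 5 kb, 580 (36.2%) at 5 to 50 kb and 261 (16.3%) further away, and 2 had no named gene on their scaffold. Upstream of the nearest named gene were 796 (49.7%), against 213 (19.9%) of the single-exon loci, and downstream were 590 (36.8%), against 702 (65.5%). These shares describe the table of positions and were not tested. Within 1 kb, 202 loci had at least 10 counts in rhino 1 replicate 1 with over 90% of them on 1 strand, and their orientation was read from that library. Loci modelled on 1 strand always meet the 90% limit, and their orientation is that of the model. Of the 202, 83 lay upstream of the gene on the opposite strand, 41 upstream on the same strand, 55 downstream on the same strand and 23 downstream on the opposite strand. The loci were spread over 78 scaffolds, with 98 on scaffold 33.

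The loci held a small share of each library, and it did not separate the animals. They took 3.196%, 3.166% and 3.304% of the counts in rhino 2 replicates 1, 2 and 3, against 3.214%, 2.704% and 3.171% in rhino 1 (95% Wilson intervals, for counting error only, lay within 3.126% to 3.338% in rhino 2 and 2.666% to 3.223% in rhino 1). The means were 3.22% ± 0.0727 in rhino 2 and 3.03% ± 0.283 in rhino 1 (SD, n = 3 libraries each). The difference of 0.192 percentage points was smaller than the spread between the libraries of rhino 1 (exact permutation test, two-sided, p = 0.5, where the smallest p possible is 0.1). It was 0.0256 points without the locus with the most counts and 0.0294 points without rhino 1 replicate 2. Between 88.5% and 91.8% of the counts of these loci in rhino 2, and between 88.4% and 91.7% in rhino 1, fell on loci modelled on both strands.

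Outside rhino 1 replicate 1, the number of loci with counts moved with the depth of the library. At least 1 count was present at 538, 336 and 437 loci in rhino 2 replicates 1, 2 and 3, against 1211, 272 and 490 in rhino 1. The deepest library, rhino 1 replicate 1, stood far above the other 5, in which the number increased with their totals. It also counts on the other strand, and 629 of its 1211 loci are modelled on 1 strand. Depth and strand cannot be told apart in this library. A single count equals 0.0753 CPM in the deepest library, and 1.49 CPM in the smallest, rhino 1 replicate 2. With 0 counts, levels up to 0.226 CPM and 4.46 CPM in these libraries remain possible by counting error alone. Of loci modelled on 1 strand, 593 had counts in rhino 1 replicate 1 alone, 139 in other libraries alone, 36 in both and 252 in no library. Of those modelled on both, 493 had counts in both kinds of library and 89 in rhino 1 replicate 1 alone. At 1 CPM or more stood 32.8%, 21.0% and 26.8% of the spliced loci in rhino 2 and 58.8%, 17% and 30.1% in rhino 1. Among single-exon loci, the shares were 46.3%, 40.2% and 42.6% in rhino 2 and 41.3%, 35.8% and 45.6% in rhino 1. The share was lower for spliced loci in 5 of 6 libraries and higher in rhino 1 replicate 1. The means were 31.1% ± 14.8 for spliced and 42.0% ± 3.84 for single-exon loci (SD, n = 6 libraries). The difference of -10.9 percentage points did not pass the test (exact paired permutation test, two-sided, p = 0.156). The libraries come from 2 animals, and all single-exon loci are modelled on 1 strand, while rhino 1 replicate 1 counts on the other strand. The test therefore cannot compare the 2 kinds of locus.

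**Figure D2:**
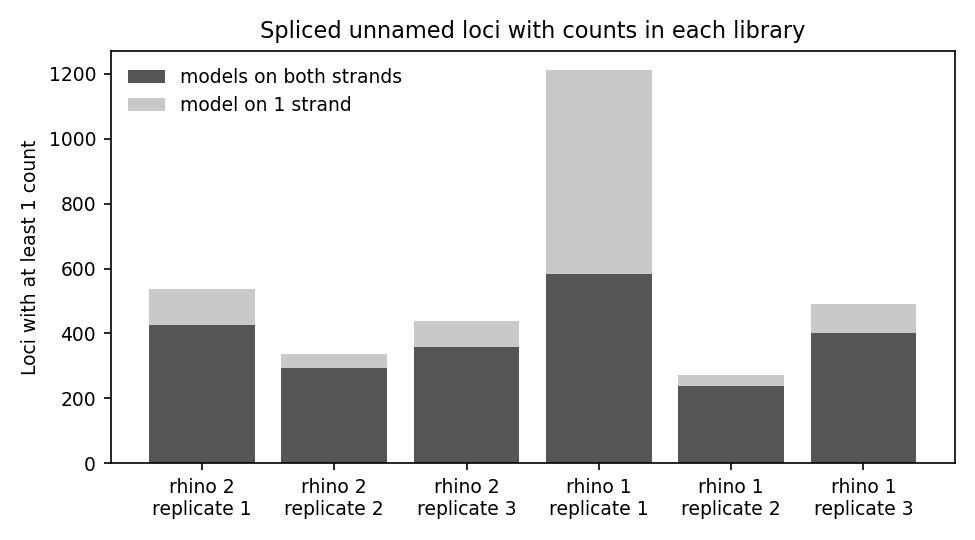
Number of spliced unnamed loci with at least 1 count (vertical axis) in each library, rhino 2 on the left and rhino 1 on the right, split into loci modelled on both strands (dark) and on 1 strand (light). Rhino 1 replicate 1 has counts at 1211 loci, 629 of them modelled on 1 strand, and the other libraries at 272 to 538.

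Detected at 1 CPM or more in every library were 196 spliced loci (12.2%), of which 193 were modelled on both strands, 33.2% of such loci. Of the single-exon loci, none of them modelled on both strands, 16 (1.49%) were detected so, and these shares are no comparison of the 2 kinds, since the libraries count on different strands. A further 86 reached it in all 3 libraries of rhino 2 only and 36 in all 3 of rhino 1 only. The order of the last 2 counts turned without rhino 1 replicate 2, the smallest library, to 32 in rhino 2 only and 154 in rhino 1 only. Among loci modelled on both strands, with all libraries, they were 64 in rhino 2 only and 35 in rhino 1 only. Loci modelled on 1 strand cannot be compared across rhino 1 replicate 1. The share detected in every library was higher at loci with more exons, at 4.44% of loci of 2 exons, 12.7% at 3 exons, 28.8% at 4 to 9 and 54.5% at 10 or more. The share modelled on both strands, given above, moves with it, and its part was not tested. By position, the share detected was 4.73% inside gene spans and 7.58% where a span was overlapped in part. It was 13.1% within 1 kb, 19.1% at 1 to 5 kb, 13.1% at 5 to 50 kb and 7.66% beyond. The share modelled on both strands was 13.5%, 30.3%, 38.4%, 42.6%, 40.9% and 31.8% in the same order, and its part was not tested.

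The counts were concentrated on part of the loci. Averaged over the animals, the locus with the most counts took 8.29%, the first 15 took 45.6% and the first 100 took 78.1% of the counts of all 1602. Loci are ordered below by CPM, their part of the counts, which grows with length as well as level. Levels of different loci are compared only per kilobase of exonic length.

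The locus with the most counts, MSTRG.17146, lies inside the span of SCFD1, a gene of vesicle transport, without touching its exons (scaffold 3, 17907951 to 17909553). It had 3490, 3432 and 3351 CPM in rhino 2, against 1557, 1914 and 1803 CPM in rhino 1. All libraries of rhino 2 were above all of rhino 1, and the difference missed the threshold (log2 ratio of rhino 2 over rhino 1 of 1.07, SE 0.18, adjusted p = 0.0545, edgeR's quasi-likelihood test with Benjamini-Hochberg adjustment over all loci, as for every adjusted p below unless another tool is named). MSTRG.17146 did pass by DESeq2 (adjusted p = 2.63e-33) and by limma-voom (adjusted p = 0.00269). The exons of its 4 models together cover the whole span of 1603 bp, as they do at 11 of the 1602 loci, and none of its introns was identical on both strands. Per kilobase, MSTRG.17146 had 2136 ± 43.7 CPM in rhino 2, against 1097 ± 114 CPM in rhino 1 (SD, n = 3).

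MSTRG.6852, of 3 exons, had the second most counts (scaffold 17, 12684374 to 12685516, plus strand alone). It had 1094, 2154 and 2125 CPM in rhino 2, against 0, 1111 and 2184 CPM in rhino 1. The 0 is in rhino 1 replicate 1, which counts on the other strand, so the locus cannot be compared across that library (log2 ratio 0.83, SE 1.85, adjusted p = 0.958). Per kilobase it had 3626 ± 1220 CPM in rhino 2, against 2249 and 4420 CPM in replicates 2 and 3 of rhino 1. MSTRG.7055, of 4 exons, had 414, 520 and 532 CPM in rhino 2, against 1764, 1938 and 1875 CPM in rhino 1 (scaffold 17, 19838798 to 19842328). It lies between TROAP and LMBRL, and all 3 of its introns were identical on both strands. It fell in rhino 2 (log2 ratio -1.82, SE 0.19, adjusted p = 0.0193). The means were 489 ± 65.0 CPM in rhino 2 and 1859 ± 88.3 CPM in rhino 1 (SD, n = 3).

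Of the other 12 among the 15 loci with the highest mean CPM, MSTRG.19617, MSTRG.29780 and MSTRG.1626 had the largest fold changes. MSTRG.19617, 16003 bp downstream of LTBP3, a gene of a protein that binds latent TGF-beta, had 1994, 1160 and 1455 CPM in rhino 2, against 986.5, 434 and 528 CPM in rhino 1 (log2 ratio 1.32, SE 0.39, adjusted p = 0.196). As at MSTRG.17146, its exons together cover the whole span, here 6933 bp, and no intron was identical on both strands. MSTRG.29780, the longest locus with 23024 exonic bp, 13 transcripts and up to 10 exons, had 1129, 904 and 896 CPM in rhino 2, against 483, 315 and 448 CPM in rhino 1 (log2 ratio 1.32, SE 0.24, adjusted p = 0.0715). It stands on the scaffold named X (60347537 to 60386393), 104337 bp from CHIC1. Each of these had libraries that did not overlap and did not pass the threshold. MSTRG.1626, of 3 exons in 475 bp (scaffold 11, 2776795 to 2777814), went the other way, with 530, 723 and 734 CPM in rhino 2, against 1317, 1472 and 1768 CPM in rhino 1 (log2 ratio -1.09, SE 0.22, adjusted p = 0.0885). Per kilobase of exon, it had 1395 ± 242 CPM in rhino 2, against 3198 ± 483 CPM in rhino 1. MSTRG.29780 had the lowest value of the 15 per kilobase, at 42.4 ± 5.74 CPM in rhino 2, against 18.0 ± 3.84 CPM in rhino 1.

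The other 9 differed less. MSTRG.7800 lies 139 bp downstream of CC152, and had 1026, 1039 and 1090 CPM in rhino 2, against 703, 471 and 582 CPM in rhino 1 (log2 ratio 0.93, SE 0.22, adjusted p = 0.125). MSTRG.30295, of 4 exons, had 1213, 1165 and 1515 CPM in rhino 2, against 836, 818 and 920 CPM in rhino 1 (log2 ratio 0.70, SE 0.19, adjusted p = 0.174). MSTRG.20600, MSTRG.10279, MSTRG.3045, MSTRG.11092, MSTRG.12627, MSTRG.29992 and MSTRG.17039 had log2 fold changes between -0.07 and 0.61, with adjusted p between 0.257 and 0.995. Of these 7, the libraries of the animals overlapped at all but MSTRG.10279 and MSTRG.12627.

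**Figure D3:**
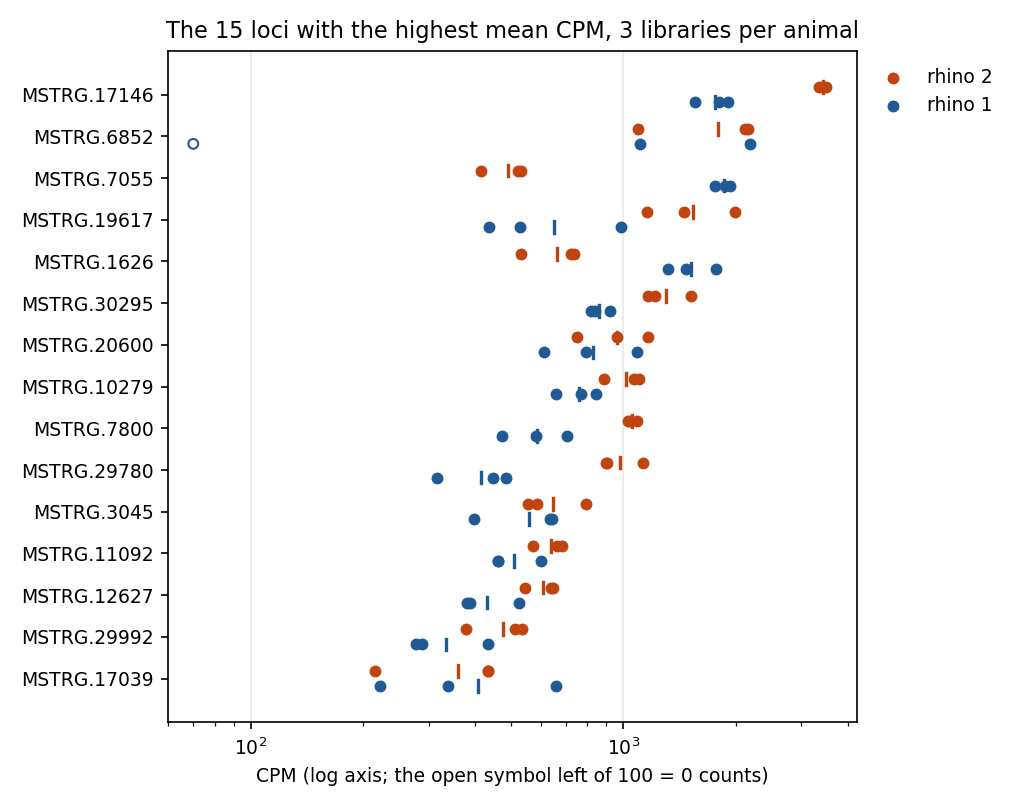
Level in CPM (log axis) of the 15 loci with the highest mean CPM in each library, with rhino 2 in orange above rhino 1 in blue and the mean as a short bar where all 3 libraries have counts. The libraries of rhino 2 lie above those of rhino 1 at MSTRG.17146 (3351 to 3490 against 1557 to 1914 CPM) and below them at MSTRG.7055 (414 to 532 against 1764 to 1938 CPM).

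Between the animals, 7 of the 320 spliced unnamed loci that passed the filter on low counts passed the threshold (2.19%), against 0.833% of all 8527 loci tested. Higher in rhino 2 were 5, against 0.387% of all loci tested, and lower were 2, against 0.446%. The 320 include 297 loci modelled on both strands and 23 on 1 strand, and the 1282 others did not pass the filter. Among these are loci modelled on 1 strand with counts in rhino 1 replicate 1 alone, where the 0 in other libraries says nothing about their RNA. The libraries of the 2 animals did not overlap at 97 of the 320 (30.3%), 57 higher and 40 lower in rhino 2, against 24.4% of all loci tested. An unadjusted p under 0.05 was found at 52 (16.2%), against 12.9%. The median log2 fold change was 0.08 (quartiles -0.53 and 0.72) for the 320 and 0.04 (-0.43 and 0.54) for all loci tested. The 7 also passed by DESeq2 and by limma-voom, which called 33 (10.3%, against 7.35% of all loci) and 34 (10.6%, against 8.96%). MSTRG.17146, MSTRG.29780, MSTRG.1626, MSTRG.7800 and MSTRG.30295, described above, passed by both of these tools and not by edgeR. MSTRG.19617, MSTRG.10279 and MSTRG.12627 passed by DESeq2 alone.

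MSTRG.6920 had the largest difference of the 7. It lies between HXC11 and HXC12, the genes HOXC11 and HOXC12 of the homeobox cluster that patterns the body axis (scaffold 17, 15713553 to 15717863, up to 3 exons), 5553 bp downstream of HOXC12. It had 149.6, 129.3 and 151.1 CPM in rhino 2, against 14.7, 22.3 and 18.6 CPM in rhino 1. All libraries of rhino 2 were several times above those of rhino 1 (log2 ratio 3.08, SE 0.26, adjusted p = 0.0125). Its plus models held 3 introns and its minus models 4, and 1 was identical on both strands.

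MSTRG.24990 and MSTRG.24979 are neighbours upstream of PO210, the nuclear pore gene NUP210, on scaffold 5. MSTRG.24990, 1315 bp from it, had 164.7, 208.9 and 231.8 CPM in rhino 2, against 45.2, 46.1 and 51.7 CPM in rhino 1 (log2 ratio 2.18, SE 0.23, adjusted p = 0.0193). MSTRG.24979, 42261 bp from it, had 128.0, 174.8 and 168.8 CPM in rhino 2, against 41.5, 34.2 and 56.6 CPM in rhino 1 (log2 ratio 1.92, SE 0.29, adjusted p = 0.0486). Plus and minus models held 1 intron each at MSTRG.24990, none identical, and 2 and 1 at MSTRG.24979, with 1 identical. At MSTRG.24990 the summed strands may thus be different transcripts. Between MSTRG.24979 and MSTRG.24990, in a stretch from 11229111 to 11280272, lie 3 more tested loci, which were singled out after their values were seen. MSTRG.24989, modelled on the plus strand alone, had 162.1, 214.6 and 260.6 CPM in rhino 2, against 16.0, 31.2 and 62.8 CPM in rhino 1 (log2 ratio 2.66, SE 0.52, adjusted p = 0.0781). As rhino 1 replicate 1 counts on the other strand, MSTRG.24989 cannot be compared across that library. MSTRG.24985 and MSTRG.24987 had log2 fold changes of 2.14 and 1.96 (adjusted p = 0.487 and 0.698), and both were at 0 in rhino 1 replicate 2. All 5 loci had a higher mean in rhino 2.

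The other 2 loci higher in rhino 2 are MSTRG.29346 and MSTRG.16782. MSTRG.29346, of 5 exons with 4 introns identical on both strands, had 56.4, 83.8 and 67.7 CPM in rhino 2, against 14.4, 16.4 and 14.5 CPM in rhino 1 (scaffold X, 3709371 to 3720014; log2 ratio 2.30, SE 0.35, adjusted p = 0.0486). Its nearest named gene, PLPL4, was 311922 bp away. MSTRG.16782 had 77.4, 83.8 and 83.45 CPM in rhino 2, against 21.45, 14.9 and 22.1 CPM in rhino 1 (scaffold 29, 29732020 to 29825003; log2 ratio 2.13, SE 0.32, adjusted p = 0.0486). Its span overlaps that of O13C8, a name of the olfactory receptor family, and it has up to 5 exons. Its plus models held 5 introns and its minus models 4, and 3 were identical on both strands.

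Beside MSTRG.7055, MSTRG.5106 fell in rhino 2. It has 9 exons over 5408 bp, 10105 bp upstream of BORC6, a gene of lysosome positioning (scaffold 16, 10416504 to 10421911). It had 24.3, 39.8 and 37.1 CPM in rhino 2, against 196.9, 129.4 and 137.3 CPM in rhino 1 (log2 ratio -2.12, SE 0.33, adjusted p = 0.0492). Its plus models held 8 introns and its minus models 7, and 5 were identical on both strands.

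**Figure D4:**
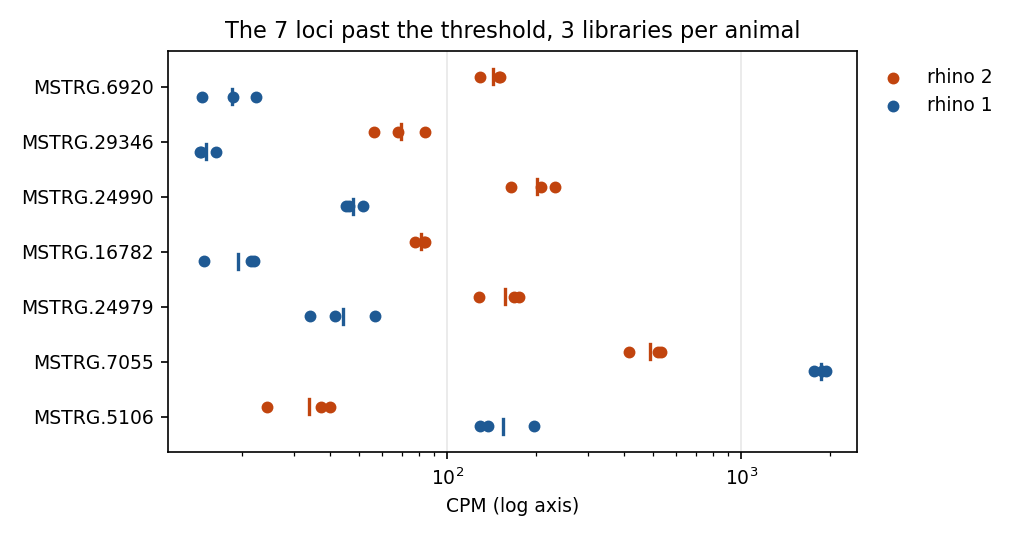
Level in CPM (log axis) of the 7 loci past the threshold in each library, with rhino 2 in orange above rhino 1 in blue and the mean as a short bar. From MSTRG.6920 down to MSTRG.24979 the libraries of rhino 2 lie above those of rhino 1, and at MSTRG.7055 and MSTRG.5106 below.

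The calls rest on all 6 libraries. With 1 library left out, edgeR called 3 of the spliced unnamed loci without rhino 1 replicate 1 and 0 without any other. Over all loci it called 49, 4 and 0 without rhino 1 replicates 1, 2 and 3 and 1 without each library of rhino 2. The fold changes of the 7 kept their direction. Their adjusted p then lay between 0.0315 (MSTRG.6920) and 0.279 (MSTRG.29346). Without the libraries of rhino 1 in turn 65, 60 and 42 loci had an unadjusted p under 0.05, and without those of rhino 2 in turn 37, 52 and 39.

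**Figure D5:**
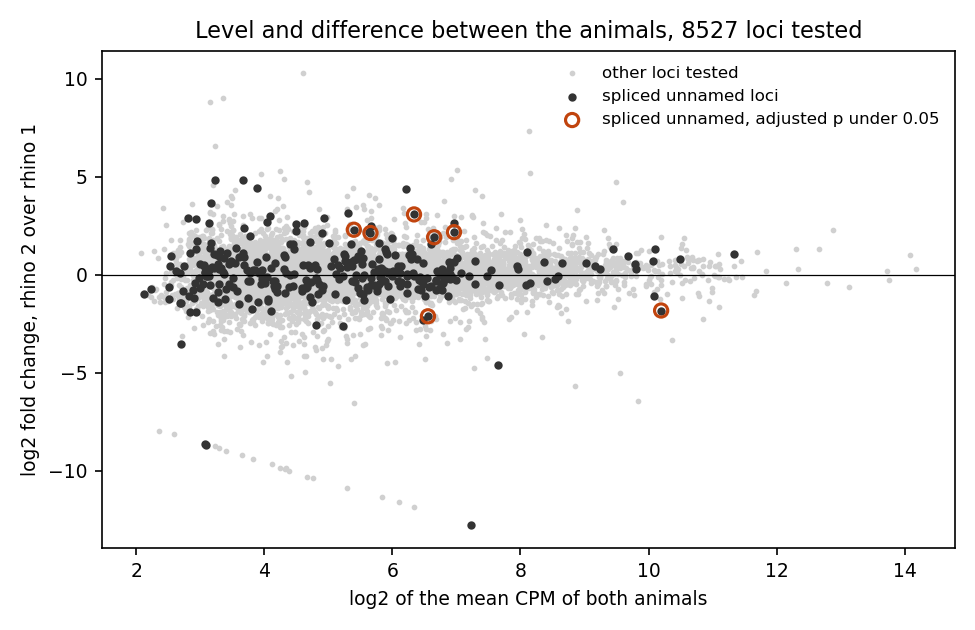
Log2 fold change of rhino 2 over rhino 1 (vertical axis) against the log2 of the mean CPM (horizontal axis) for all 8527 loci tested, with the 320 spliced unnamed loci in black and the 7 past the threshold circled. The black points below -8 are loci with no counts in rhino 2, whose fitted values depend on the prior count and are no measure of size.

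Larger fold changes than those of the 7 were found at loci that did not pass the threshold. MSTRG.17381, 1744 bp upstream of DISP2, had no counts in rhino 2, against 338.6, 548.8 and 13.8 CPM in rhino 1 (scaffold 3, 38211293 to 38211637). MSTRG.17381 has a span of 345 bp that its exons together cover in full, and no intron identical on both strands. Against the 0.907 CPM that 3 counts over the 3 libraries of rhino 2 allow, it was at least 331-fold lower in rhino 2 (adjusted p = 0.142). Such a bound takes the mean of rhino 1 as exact and leaves out the spread between its libraries. Rhino 1 replicate 3 was far below the other 2 libraries of its animal, and the bound was 194-fold without rhino 1 replicate 2. MSTRG.10358 showed the same split, with 27.6, 0 and 13.9 CPM in rhino 2, against 549.0, 587.4 and 29.7 CPM in rhino 1 (log2 ratio -4.60, adjusted p = 0.184). MSTRG.18475 had no counts in rhino 2, against 18.5, 10.4 and 22.1 CPM in rhino 1, and MSTRG.1887 had none in rhino 2, against 8.50, 31.2 and 11.04 CPM in rhino 1, each at least 18.7-fold lower in rhino 2 (adjusted p = 0.186 and 0.229). For MSTRG.1887 the bound was 10.8-fold without rhino 1 replicate 2. MSTRG.21839 had a log2 fold change of -3.52 (adjusted p = 0.541). In the other direction, MSTRG.22859, modelled on both strands, had 9.19, 31.3 and 10.2 CPM in rhino 2, against 3.24, 0 and 0 CPM in rhino 1 (log2 ratio 3.66, adjusted p = 0.479). MSTRG.30401, MSTRG.1011, MSTRG.7964 and MSTRG.261 had log2 fold changes between 4.36 and 4.84 and adjusted p between 0.329 and 0.395. All 4 are modelled on 1 strand and at 0 in rhino 1 replicates 1 and 2, the first of which counts on the other strand.

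The 3 loci with the most exons in a transcript lay within 1 kb of a named gene. MSTRG.11404 had the most, 57 over 114240 bp, and ran from 947 bp downstream of MACF1, the gene of a large protein that links actin and microtubules, on the same strand (scaffold 21, 31210171 to 31324410). It is modelled on the plus strand alone, with counts in rhino 1 replicate 1 alone (255.4 CPM), so it was not tested. MSTRG.12502, of 34 exons with 33 introns identical on both strands, had 46.6, 79.6 and 57.5 CPM in rhino 2, against 97.8, 65.4 and 100.7 CPM in rhino 1 (log2 ratio -0.45, SE 0.33, adjusted p = 0.735), and it lies 515 bp upstream of TNF6B. MSTRG.24368, of 33 exons with all 32 introns identical on both strands, starts 670 bp downstream of DNMT1, the maintenance DNA methyltransferase gene, on the same strand (scaffold 40, 5074619 to 5101998). It had 61.0, 88.1 and 70.5 CPM in rhino 2, against 196.1, 105.6 and 181.4 CPM in rhino 1 (log2 ratio -1.06, SE 0.32, adjusted p = 0.216), and its libraries did not overlap. Beside MSTRG.29780, the most transcripts, 10 each, were at MSTRG.22454, MSTRG.28494 and MSTRG.3254, with log2 fold changes of -0.23, 0.64 and -0.44 (adjusted p = 0.777, 0.431 and 0.613). MSTRG.28494 lies 81 bp upstream of THAP9.

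The order of named genes along the scaffolds allows the loci to be set beside RefSeq's annotation of the same species, which is of another assembly. For 1207 of the 1602 loci, the nearest genes on both sides whose deposited name is also a RefSeq symbol lay near each other on 1 RefSeq chromosome, with at most 20 genes between them. For 172 loci, in 124 gaps, the deposited table has no other named gene between the 2 neighbours. RefSeq has at least 1 gene in between at 121 of these (70.3%), and at 41 of 122 single-exon unnamed loci (33.6%). Spliced loci lie further from named genes, some share a gap, and the lengths of the gaps were not compared. These shares were not tested. Exactly 1 gene was in between for 69 spliced loci. It was a long non-coding RNA for 34, a protein-coding gene for 24, a pseudogene for 7, a small nuclear RNA for 3 and of another kind for 1. Such a gene is the one RefSeq has between the same neighbours. Gene order does not identify a locus, and no sequence was compared.

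For the loci described above, neighbours were also matched through the UniProt entry names that the deposited table uses, and RefSeq genes that have a namesake among the deposited genes of the gap are left out. RefSeq has RPS19, a ribosomal protein gene, between LYPD4 and ARHG1 (ARHGEF1), where MSTRG.20600 had 749, 1165 and 961 CPM in rhino 2, against 612, 791 and 1089 CPM in rhino 1 (up to 6 exons; scaffold 33, 19013989 to 19022809, inside the span of DMRTD). It has SELENON, a selenoprotein gene of the endoplasmic reticulum, between MA1C1 (MAN1C1) and MFR1L (MTFR1L), where MSTRG.11092 with 12 exons had 683, 665 and 572 CPM in rhino 2, against 602, 461 and 460 CPM in rhino 1. Between COCH and G2E3, around MSTRG.17146, 1 pseudogene is left. Between FRMD8 and LTBP3, around MSTRG.19617, there is 1 long non-coding RNA. At other loci of the 15 RefSeq has several genes in the gap. The gap of MSTRG.1626 holds TMSB10, the gene of an actin-binding thymosin, and 2 long non-coding RNAs. That of MSTRG.12627 holds RPL30, MATN2 and a snoRNA, that of MSTRG.29992 holds RPL39, SOWAHD and a snoRNA, and that of MSTRG.17039 holds RPS29 among 8. The gap of MSTRG.10279 holds MARCKS among 5 genes. In that of MSTRG.7800 lie 6, of which SELENOP, the gene of the selenium transport protein of plasma, LOC147914610, LOC101388731, LOC147914611 and LOC147914612 are protein-coding. RTEL1, a DNA helicase gene of telomere maintenance, is the 1 gene between the neighbours of MSTRG.12502, and MFF, a gene of mitochondrial fission, between those of MSTRG.22454. Between DNMT1 and EIF3G, around MSTRG.24368, none is left.

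For the loci that passed the threshold, the gap of MSTRG.6920 between HOXC11 and HOXC12 holds 1 long non-coding RNA. That of MSTRG.7055 holds 7 genes, of which PRPH, LOC101402274, LOC101402700 and LOC101402965 are protein-coding. That of MSTRG.5106 holds 9, among them AURKB, the gene of a mitotic kinase, with 7 transfer RNA genes and 1 long non-coding RNA. That of MSTRG.29346 holds ANOS1 and 3 long non-coding RNAs. The other 3 of the 7 had no matched pair of neighbours.

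For 23 loci the only RefSeq gene between such neighbours was protein-coding and the deposited table has no model of its name in the gap. These are 19 different RefSeq genes, since some gaps hold 2 loci. Of the 23 loci, 13 were tested and 7 were at 1 CPM or more in all 6 libraries. The highest mean CPM was that of MSTRG.6935, of 5 exons in 7507 bp, where RefSeq has SP1, the gene of a general transcription factor, between AMHR2 and SP7. It had 132.6, 75.3 and 132.6 CPM in rhino 2, against 146.0, 144.3 and 98.7 CPM in rhino 1 (scaffold 17, 16192240 to 16228823). Per kilobase of exon this was 15.1 ± 4.40 CPM in rhino 2, against 17.3 ± 3.58 CPM in rhino 1. MSTRG.7842, between FST and ARL15 where RefSeq has NDUFS4, a subunit gene of mitochondrial complex I, had 69.6, 59.7 and 95.5 CPM in rhino 2, against 123.5, 77.3 and 155.2 CPM in rhino 1. MSTRG.20498, between QPCTL and GIPR where RefSeq has the splicing gene SNRPD2, had 65.6, 88.1 and 88.1 CPM in rhino 2, against 75.85, 126.4 and 97.3 CPM in rhino 1. Per kilobase MSTRG.20498 stood higher than MSTRG.6935, at 133 ± 21.4 CPM in rhino 2, against 164 ± 41.8 CPM in rhino 1. The animals overlapped at each of these 3. MSTRG.29797, where RefSeq has the cytochrome oxidase gene COX7B between MAGT1 and ATP7A, had 34.8, 92.4 and 58.4 CPM in rhino 2, against 82.8, 96.7 and 158.7 CPM in rhino 1. MSTRG.363, where it has NDUFA5, another complex I gene, between ASB15 and IQUB, had 69.6, 89.5 and 49.1 CPM in rhino 2, against 65.1, 55.0 and 88.3 CPM in rhino 1. None of the 13 passed the threshold, and the smallest adjusted p was 0.517, at MSTRG.3694 with 22.97, 18.47 and 12.98 CPM in rhino 2, against 30.78, 52.05 and 35.19 CPM in rhino 1, where RefSeq has the mitochondrial ribosome gene MRPS18A between RSPH9 and VEGFA.

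Loci on scaffolds whose names begin with Y numbered 87, on 37 scaffolds. Counts were present at 31, 21 and 21 of them in rhino 2 and at 64, 10 and 21 in rhino 1. Their summed level was 1738, 1499 and 2037 CPM in rhino 2, against 1124, 983 and 1174 CPM in rhino 1. Most of it was MSTRG.30295 on scaffold Y_1 (6449200 to 6453304), whose values are given above and whose 3 introns were identical on both strands. How these scaffolds were named is not given in the sources used here, and granulosa cells are cells of the ovary.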

How the data were processed

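Per the labels' protocols, RNA came from the PicoPure kit and libraries from the NEBNext Ultra II RNA kit. The submitters' processing notes name Trimmomatic, HISAT2 and StringTie, without versions. Read counts were deposited as whole numbers without normalization, per transcript in 5 files and per gene in 1. The deposited table of transcript positions gives scaffold, strand and exon ends. Neither the genome build nor the strand setting is given in the sources used here.

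Counts were summed to gene identifiers and then to loci. Unnamed genes were joined to a named gene on the other strand where they shared at least 50% of the shorter exonic length (14075, bedtools 2.31.1), and unnamed genes sharing an exonic base on opposite strands were joined to each other. CPM is the count scaled to a library total of 1000000, and a count of 0 was read as up to 3 counts. Rhino 2 was compared with rhino 1 in edgeR 4.0.16 (R 4.3.3, TMM, filterByExpr, quasi-likelihood test, two-sided, Benjamini-Hochberg over all 8527 loci tested, threshold 0.05). Fold changes are log2 of rhino 2 over rhino 1, and the SE was derived from the F statistic. The procedure was tested on simulated data.

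The loci named are the 15 with the highest mean CPM, all past the threshold, the 5 largest differences in each direction without overlap and with a mean of at least 10 CPM in the higher animal, and those with the most exons or transcripts (3 each, with ties). The cluster on scaffold 5 and the loci set beside a RefSeq protein-coding gene were added after their values were seen, and 1 locus set beside such a gene is not reported here. RefSeq's annotation (assembly ASM5780239v1, another build) served for names and order alone. Entry names were matched to symbols by hand with 107 pairs, after values were seen. The loci, lists and tests were chosen with earlier results of these data known. Alternatives were DESeq2 1.42.0, limma-voom (limma 3.58.1), other scalings, filters and joins, the replicate number as a block, and each library left out in turn.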

Additional observations from a re-analysis of the deposited data

How the results depend on the processing

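The count of 7 spliced unnamed loci past the threshold was also 7 with DESeq2 size factors and with library sizes taken over the filtered loci. A minimum absolute log2 fold change of 1, or loci on both strands alone, could only leave it at 7. All 7 lie past that fold change and are modelled on both strands. DESeq2 gave 33 and limma-voom 34. With no filter on low counts it was 23 (1.70%, below the 2.22% of all loci), and 3 (0.647%, against 0.311%) among loci averaging 5 CPM or more in 1 of the animals. It was 0 by edgeR on gene identifiers as deposited, without joined strands, where 19 had an unadjusted p under 0.05. With the replicate number as a block it was 0 by edgeR, with 41 at an unadjusted p under 0.05. In both of these fits edgeR called 0 of all loci tested too. The labels do not tie equal numbers together, and deviations of same-numbered libraries correlated at 0.211, 0.133 and 0.006, so the numbers are not taken as pairs. Joining unnamed strands only at 50% of the shorter exonic length, chosen after the data were seen, gave 3 (MSTRG.6920, MSTRG.7055 and MSTRG.24990). With 1 library left out it ranged from 0 to 3, with the 3 coming without rhino 1 replicate 1. The cause of these shifts was not tested.

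The difference in the share of counts kept its direction throughout, between 0.0256 and 0.284 percentage points, and with 1 library left out it ranged from 0.0294 to 0.284. Loci detected in both animals numbered 347 with 2 of 3 libraries required, 509 with 1, and 196 to 250 with 1 library left out, against 196. The number of loci was 678 when 3 or more exons were required and between 1388 and 2269 under the other joins and distances. For the 36 named loci with a fold change, 317 of 393 alternative values kept direction and side of the threshold, 46 lost the threshold and 26 gained it. MSTRG.17039, with a log2 fold change of -0.07, changed sign to 0.09 by limma-voom, 0.00 with the replicate block, 0.48 without rhino 1 replicate 3 and 0.21 without rhino 2 replicate 1, in a range of -0.36 to 0.48 with 1 library left out. Depth limits the small libraries most, since 3 counts equal 4.46 CPM in the smallest and 0.226 CPM in the deepest.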
